A study of Mus musculus with 4 samples.

Results

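The genes described here are the ligands and receptors of the tumor necrosis factor (TNF) superfamily that the mouse tables name as Tnf, Tnfsf or Tnfrsf followed by a number. The rule takes every such row by its symbol and no measured value, and it finds 32 of the 21883 features of each table, 12 ligands and 20 receptors. Relatives under other names, such as Fas and Ngfr, are given further on as a separate list. RNA sequencing was done on young adult male wild-type mice of the BL6/C57 strain, 7 days after transection of the sciatic and femoral nerves on the left. The 4 libraries are, for each tissue, the side of the cut (ipsilateral) and the opposite side (contralateral): dorsal root ganglia (DRG) of lumbar levels 4 to 6, and lumbar dorsal cord. Each group has 1 library, so every difference below is unreplicated, and no p-value of its own is given. All 4 libraries come from operated mice, so the contralateral side is not uninjured tissue, and the sources used here do not give how many animals a library holds.

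TNF superfamily ligands are made as trimers on the cell surface, and many are shed as soluble cytokines. Their receptors fall into those with a cytoplasmic death domain, which can signal cell death, those that recruit TRAF adaptor proteins without one, and decoys that bind ligand and signal little or not at all. Both signalling kinds can activate NF-kappaB transcription factors. In injured nerve and spinal cord TNF itself is a known product of macrophages and microglia, and several of the receptors are known on neurons and glia.

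Levels are in FPKM, a fragment count scaled by transcript length and library size, so they may be compared between genes per length. The ipsilateral and contralateral libraries summed to 442298 and 431795 FPKM in DRG, and to 442196 and 425636 in cord. A feature was called measured if at least 1 of its tissue's libraries reached 1 FPKM, and 2-fold different at a log2 ratio of (ipsilateral + 1) over (contralateral + 1) of at least 1 or at most -1. The median log2 ratio over all measured features was 0.05 in DRG and 0.02 in cord. Above 0 were 7367 of 13137 measured features in DRG and 6893 of 13351 in cord. The 2 tables were normalised separately, so levels set across tissues are approximate. Tissue labels matched their markers: Prph, which encodes the peripheral neuron filament peripherin, was at 982 FPKM ipsilaterally and 1213 contralaterally in DRG, against 8.0 and 3.14 in cord, while the oligodendrocyte gene Mog was at 0.0324 and 0.711 in DRG, against 135 and 153 in cord. Markers of macrophages and microglia were higher on the cut side in both tissues. All 12 of them were higher in ipsilateral DRG, where they summed to 213 FPKM against 78.3 contralaterally, and all 12 in ipsilateral cord, where they summed to 819 against 170. In DRG the 6 fibroblast markers were also all higher ipsilaterally, summing to 616 FPKM against 308. The authors' deposited table calls 4 of the 6 higher (66.7%), where it calls 4.64% of all tested features higher. Of 9 sensory neuron markers 8 were lower in ipsilateral DRG, with a median log2 ratio of -0.47, and the 9 summed to 2725 FPKM against 2941. The authors' deposited table calls 3 of the 9 lower (33.3%), where it calls 1.9% of all tested features lower. In cord the 8 dorsal horn neuron markers summed to 266 FPKM ipsilaterally, against 354 contralaterally. Of the 7 measured, 3 were above 0 and 4 below, with a median log2 ratio of -0.31. The authors' deposited table calls 1 of the 8 higher and 1 lower (12.5% each), where it calls 4.52% of all tested features higher and 1.55% lower. All 4 measured sensory neuron markers in cord were above 0, with a median of 0.91, and 0 were called. The part of these shifts in the differences below was not tested. A difference in bulk tissue cannot tell more cells of a type from more RNA per cell.

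Most of the family was at low levels. Of the 32 members, 12 were measured in both tissues, 1 in DRG alone and 4 in cord alone, and 15 stayed under 1 FPKM in all 4 libraries. Tnfrsf21, which encodes the death domain receptor DR6, was the highest member in all 4 libraries, at 102 FPKM in ipsilateral and 83.4 in contralateral DRG, and at 27.1 in ipsilateral and 35.9 in contralateral cord. Next in ipsilateral DRG was Tnfrsf12a at 39.0 FPKM, and in contralateral DRG Tnfrsf11a at 10.3, followed by Tnfrsf12a at 10.2. In cord the next places were held by Tnfrsf12a (15.3 FPKM) and Tnfrsf19 (12.7) ipsilaterally, and by Tnfrsf19 (19.6) and Tnfrsf12a (11.2) contralaterally. Tnfrsf19 was the member that set the tissues apart most plainly, with 1.46 and 1.25 FPKM in the ipsilateral and contralateral DRG libraries. Of the 12 members measured in both tissues, 7 had the higher contralateral level in DRG and 5 in cord. With 1 library a group, no spread is at hand to say which neighbours in these orders differ.

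**Figure D1:**
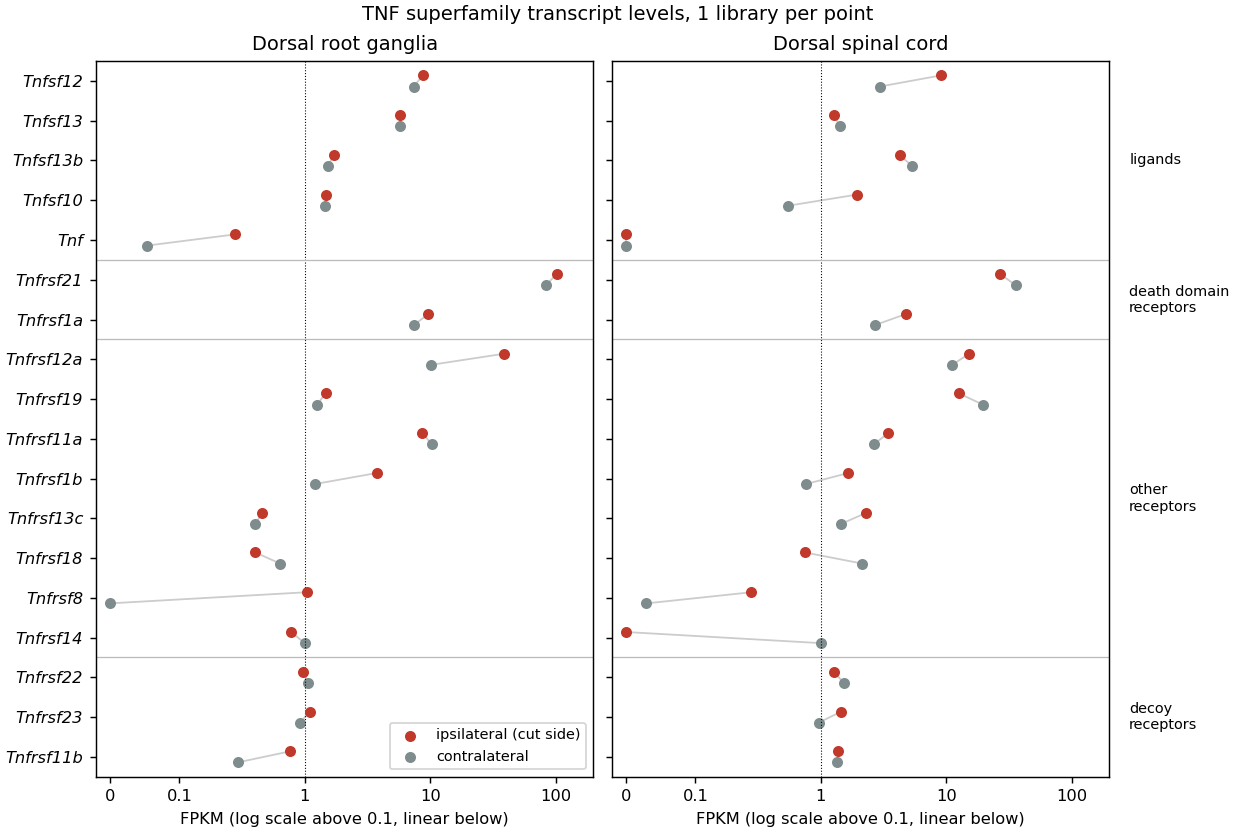
FPKM (x axis, logarithmic above 0.1 FPKM) of the 17 members measured in either tissue and of Tnf, grouped by role down the page. Red points are the ipsilateral library and grey points the contralateral one, the dotted line marks 1 FPKM, and the widest gaps among the genes called in the authors' table are those of Tnfrsf12a, Tnfrsf1b and Tnfrsf8 in DRG and of Tnfsf12 and Tnfsf10 in cord.

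In ipsilateral DRG the 3 members that were 2-fold higher were all receptors that signal through TRAF proteins: Tnfrsf12a, Tnfrsf1b and Tnfrsf8. They are 3 of 13 measured members (23.1%), where 3.04% of all measured features were 2-fold higher, and 0 members were 2-fold lower, where 0.784% of all measured features were (3.83% in either direction). The authors' deposited table calls the same 3 genes higher, out of 15 members it tested (20.0%), where it calls 4.64% of all tested features higher. It calls 0 of the 15 lower, where 1.9% of all tested features are (6.55% in either direction). The median log2 ratio of the 13 was 0.13, and 11 were above 0. Tnfrsf8 counted as measured through its ipsilateral library alone, so these counts describe the libraries and support nothing further. At a pseudocount of 3 FPKM 1 member, Tnfrsf12a, was 2-fold higher.

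Tnfrsf12a encodes Fn14, the receptor of the cytokine TWEAK, and is known as an early response gene of growth factor stimulation and tissue injury. It was at 39.0 FPKM in ipsilateral DRG, against 10.2 in contralateral DRG, a 3.82-fold difference and a log2 ratio of 1.84. The 95% interval of the fold was 2.62 to 5.58 by the error that the authors' deposited table implies, and that table gives q = 9.85e-10. Such intervals cover the authors' estimate of error within these libraries and not variation between animals. In cord the same gene was at 15.3 FPKM ipsilaterally, against 11.2 contralaterally, a 1.37-fold difference whose interval in the authors' deposited table spans 1 (0.73 to 2.55). The row lies on mm9 chromosome 17 from 23797490 to 23814416, a span that the tables also give to Hcfc1r1, Thoc6 and Ccdc64b. Hcfc1r1 had 43.6 FPKM ipsilaterally and 52.7 contralaterally in DRG, Thoc6 had 5.04 and 5.53, and Ccdc64b was listed at 0 in both. In cord Hcfc1r1 had 22.2 and 33.0 FPKM and Thoc6 2.73 and 4.01. Hcfc1r1 and Thoc6 were thus lower on the cut side in both tissues, with intervals that span 1 in the authors' deposited table. Whether reads were shared between the rows of this span was not tested, so the size of the Tnfrsf12a difference is uncertain to that extent.

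Tnfrsf1b encodes TNFR2, the TNF receptor without a death domain, known on myeloid and endothelial cells. It was at 3.76 FPKM in ipsilateral DRG, against 1.20 in contralateral DRG (3.14-fold, log2 ratio 1.11). The interval of the fold was 1.88 to 5.23 and q was 0.000649 in the authors' deposited table. In cord it was at 1.66 FPKM ipsilaterally, against 0.758 contralaterally (2.19-fold, log2 ratio 0.60). There the interval was 1.07 to 4.49 and q was 0.191, so the authors' deposited table does not call it. Its mm9 position is chromosome 4, 144802271 to 144836773. In both tissues the summed myeloid markers were higher on the same side as Tnfrsf1b. At least 2-fold higher were 10 of 12 markers in ipsilateral DRG and 11 of 12 in ipsilateral cord. Of all measured features 3.04% in DRG and 4.46% in cord were. The part of the myeloid markers in the Tnfrsf1b difference was not tested.

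Tnfrsf8 encodes CD30, a receptor known on activated lymphocytes. It was at 1.03 FPKM in ipsilateral DRG and was listed at 0 in contralateral DRG, and the authors' deposited table calls it (q = 0.00554). No fold is given against a library listed at 0, and its log2 ratio of 1.02 depends on the pseudocount. The p-value in the authors' deposited table has the size that about 12.9 reads would give ipsilaterally. In cord it was at 0.279 FPKM ipsilaterally, against 0.0296 contralaterally, which the table marks as having too little data for a test. It lies next to Tnfrsf1b on mm9 chromosome 4, from 144858879 to 144905050. The 9 markers of T and NK cells all stayed under 1 FPKM in DRG and summed to 2.46 FPKM ipsilaterally, against 3.34 contralaterally, with 2 and 3 of them at 0.

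**Figure D2:**
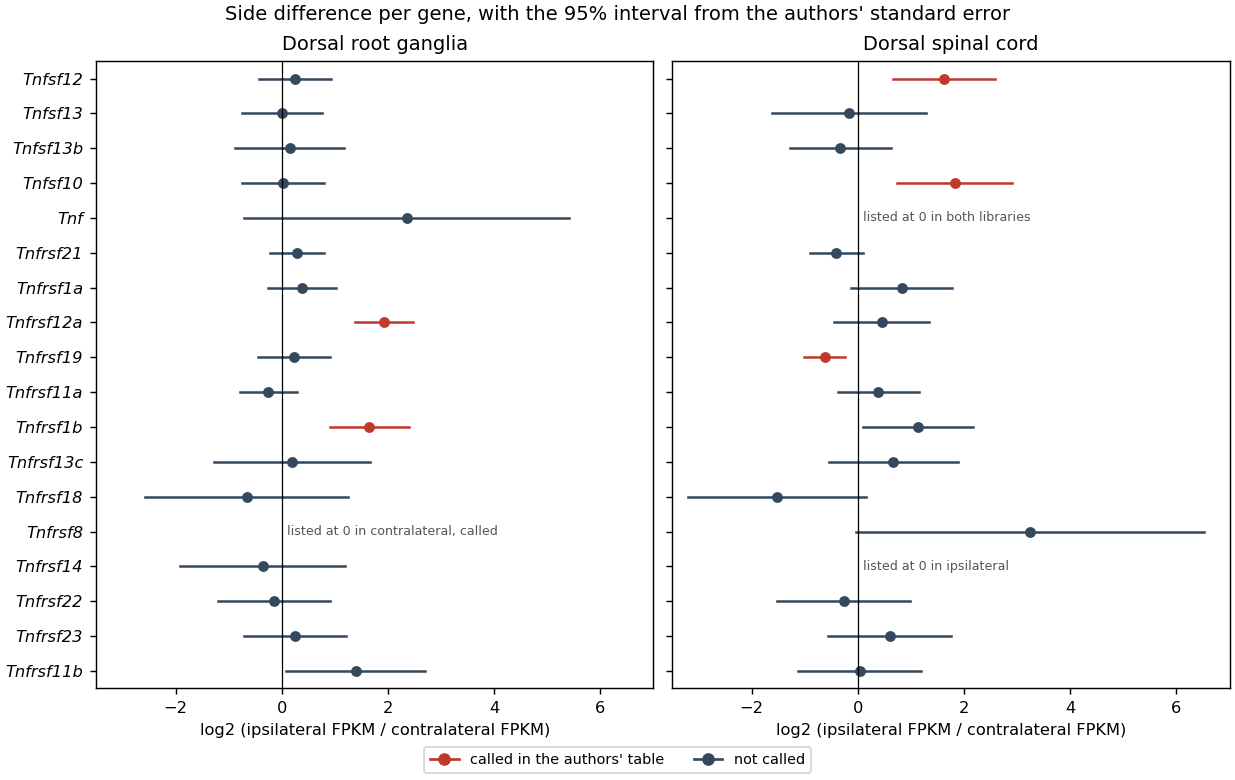
Plain log2 fold of ipsilateral over contralateral FPKM (x axis) for the same genes, with bars for the 95% interval from the standard error in the authors' deposited table. Red marks genes called there; genes with a library at 0 have no point, and the intervals of the called genes with a point all lie on 1 side of 0.

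The stretches before the start sites of these 3 receptors are shown because they are the members that were higher together in DRG. Sequences are the 250 bases upstream of the annotated start, 5′ to 3′ on the gene's strand, from RefSeq on GRCm38.p6, which is not the mm9 build of the tables. Capitals mark GGGCGG, the GC box bound by Sp1, and TGANTCA, the AP-1 site bound by Jun and Fos proteins, each on either strand. Tnfrsf12a is at chr17:23677450-23677699, Tnfrsf1b at chr4:145246871-145247120 and Tnfrsf8 at chr4:145315165-145315414, all on the minus strand.
Tnfrsf12a: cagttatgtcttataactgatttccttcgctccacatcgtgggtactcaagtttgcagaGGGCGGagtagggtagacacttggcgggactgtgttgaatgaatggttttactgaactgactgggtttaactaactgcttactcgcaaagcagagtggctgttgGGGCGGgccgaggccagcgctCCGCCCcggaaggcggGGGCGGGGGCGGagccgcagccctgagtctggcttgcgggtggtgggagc
Tnfrsf1b: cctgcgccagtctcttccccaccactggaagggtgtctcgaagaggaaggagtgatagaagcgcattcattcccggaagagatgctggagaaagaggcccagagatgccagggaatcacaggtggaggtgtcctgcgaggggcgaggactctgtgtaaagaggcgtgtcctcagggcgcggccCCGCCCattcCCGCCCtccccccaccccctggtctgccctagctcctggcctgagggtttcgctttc
Tnfrsf8: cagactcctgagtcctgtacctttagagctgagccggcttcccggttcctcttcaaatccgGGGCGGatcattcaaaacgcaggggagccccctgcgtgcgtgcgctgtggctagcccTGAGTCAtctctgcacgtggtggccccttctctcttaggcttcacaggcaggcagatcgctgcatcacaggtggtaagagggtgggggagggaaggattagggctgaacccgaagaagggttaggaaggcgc

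The Tnfrsf12a stretch held 5 GC boxes, 2 of them adjoining each other, Tnfrsf1b held 2 and Tnfrsf8 held 1. A GC box was present in 32.7% of the 32851 upstream stretches of this length in the RefSeq table, and in 12 of 29 stretches of the 25 members that matched it by symbol. The AP-1 letters occurred once, in Tnfrsf8, and occur in 6.75% of all stretches and in 5 of the 29. The kappaB consensus, the NF-kappaB site, also matched once, in Tnfrsf8 (3.9% of all stretches, and 2 of the 29), where it overlaps no capital letters. GAAA repeated after any 2 bases, a run found in interferon-responsive promoters, matched once, in Tnfrsf1b (2.98% of all stretches, and 4 of the 29), ending at the start site. The cAMP and ATF site TGACGTCA matched in none of the 29 (1.55% of all stretches). Both strands were searched, and a match is a description of letters and not of binding. No motif searched was shared by the 3 receptors except the GC box.

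By their own rows, the ligand genes of these receptors were either close between sides in DRG or too low to compare. Tnfsf12, which encodes TWEAK, the ligand of Fn14, had 8.75 FPKM ipsilaterally and 7.37 contralaterally in DRG. This 1.19-fold difference had an interval of 0.74 to 1.91 in the authors' deposited table. The row shares its span with BC096441, described below, and summed with it came to 13.4 FPKM against 7.86 (1.70-fold). How reads were divided between these rows is uncertain, so the Tnfsf12 difference in DRG is uncertain too. Tnf, a ligand of TNFR2, was far lower, with 0.276 FPKM ipsilaterally and 0.0539 contralaterally in DRG. The authors' error corresponds to about 7.68 and 0.960 reads, and the 5.11-fold ratio has an interval of 0.61 to 42.7 in the authors' deposited table, which gives no test. Tnfsf8, which encodes the CD30 ligand, was at 0.0963 and 0.0377 FPKM, worth about 4.0 and 1.0 reads. At this depth a side difference in Tnf or Tnfsf8 of the size seen in their receptors was not detectable.

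The other measured ligands in DRG were close between sides by their own rows. Tnfsf13, encoding APRIL, was at 5.79 FPKM ipsilaterally and 5.75 contralaterally. Tnfsf10, encoding TRAIL, was at 1.47 and 1.44 FPKM, and Tnfsf13b, encoding the B cell survival factor BAFF, at 1.70 and 1.53. All 4 measured ligands were between 0.01 and 0.22 on the log2 ratio scale, and median rescaling put Tnfsf10 and Tnfsf13 below 0. Of the 8 ligands under 1 FPKM in DRG, Tnfsf4 was listed at 0 in both libraries, Tnfsf11 at 0 ipsilaterally, and none of the 8 exceeded 0.446 FPKM.

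Among the death domain receptors, Tnfrsf1a, which encodes TNFR1, the main receptor of soluble TNF, had 9.67 FPKM ipsilaterally and 7.43 contralaterally in DRG. Its 1.3-fold difference had an interval of 0.84 to 2.02 in the authors' deposited table. Tnfrsf21 was 1.22-fold higher (interval 0.86 to 1.74, from the authors' deposited table). Tnfrsf10b, the TRAIL receptor DR5, stayed low at 0.442 FPKM ipsilaterally and 0.154 contralaterally, with an interval of the 2.88-fold difference from 0.98 to 8.46 in the authors' deposited table. Tnfrsf25 was at 0.139 FPKM ipsilaterally and listed at 0 contralaterally.

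The remaining measured receptors of DRG did not reach 2-fold. Tnfrsf11a, which encodes RANK, known for osteoclast formation, was at 8.66 FPKM ipsilaterally and 10.3 contralaterally (0.84-fold), and Tnfrsf19, encoding TROY, at 1.46 and 1.25. Of the decoy receptors, Tnfrsf22 was at 0.965 and 1.07 FPKM and Tnfrsf23 at 1.09 and 0.917. These are near neighbours of each other and of Tnfrsf26 on chromosome 7, similar in sequence, so reads could be split between them. Tnfrsf11b, which encodes osteoprotegerin, the decoy of RANK ligand and TRAIL, was under 1 FPKM at 0.765 ipsilaterally and 0.292 contralaterally. Its 2.62-fold difference had an interval of 1.06 to 6.47 in the authors' deposited table but q = 0.25 there.

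In the cord other members differed most, among them the ligand genes Tnfsf12 and Tnfsf10. Tnfsf12 was the 1 member 2-fold higher ipsilaterally and Tnfrsf14 the 1 member 2-fold lower, each 6.25% of 16 measured members, where 4.46% of all measured features were 2-fold higher and 1.64% 2-fold lower (6.1% in either direction). The authors' deposited table calls Tnfsf12 and Tnfsf10 higher and Tnfrsf19 lower, out of 17 members tested (11.8% and 5.88%), where it calls 4.52% of all tested features higher and 1.55% lower (6.06% in either direction). With 1 or 2 members in each direction the counts are too small to set these shares apart from those of all features. Tnfrsf14 counted as measured through its contralateral library alone, and Tnfsf10 through its ipsilateral one. The 2-fold counts therefore describe the libraries and support nothing further. The median log2 ratio of the 16 was 0.15, with 9 above 0 and 7 below.

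Tnfsf12 was at 9.09 FPKM in ipsilateral cord, against 2.96 in contralateral cord (3.07-fold, log2 ratio 1.35). The interval of the fold was 1.58 to 5.95 and q was 0.0234 in the authors' deposited table. TWEAK is known as a product of macrophages and microglia among other cells, and the myeloid markers were higher on the same side; their part in the Tnfsf12 difference was not tested. The row cannot be read alone. It shares its span on mm9 chromosome 11, from 69496079 to 69509600, with Tnfsf13 and with BC096441, a row that the reference tables used here do not annotate. BC096441 was listed at 0 in ipsilateral cord and at 2.42 FPKM in contralateral cord, opposite to Tnfsf12, and Tnfsf13 was at 1.27 and 1.42. The 3 rows together came to 10.4 FPKM ipsilaterally, against 6.80 contralaterally, a 1.52-fold difference, and Tnfsf12 with BC096441 to 9.09 against 5.38 (1.69-fold). Reads common to these transcripts had to be divided between rows by the authors' counting, so the size of the Tnfsf12 difference is uncertain.

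In DRG the same locus differed through BC096441, which was at 4.61 FPKM ipsilaterally, against 0.493 contralaterally (the authors' deposited table has q = 0.000349). Tnfsf12 with BC096441 came to 13.4 FPKM against 7.86 (1.70-fold), so the size of the Tnfsf12 difference is uncertain in DRG as well. The 3 rows in DRG summed to 19.2 FPKM ipsilaterally and 13.6 contralaterally, a 1.41-fold difference. The locus total was therefore higher on the cut side in both tissues, by 0.46 in DRG and 0.54 in cord on the log2 ratio scale, both short of 2-fold, although different rows carried the difference.

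**Figure D3:**
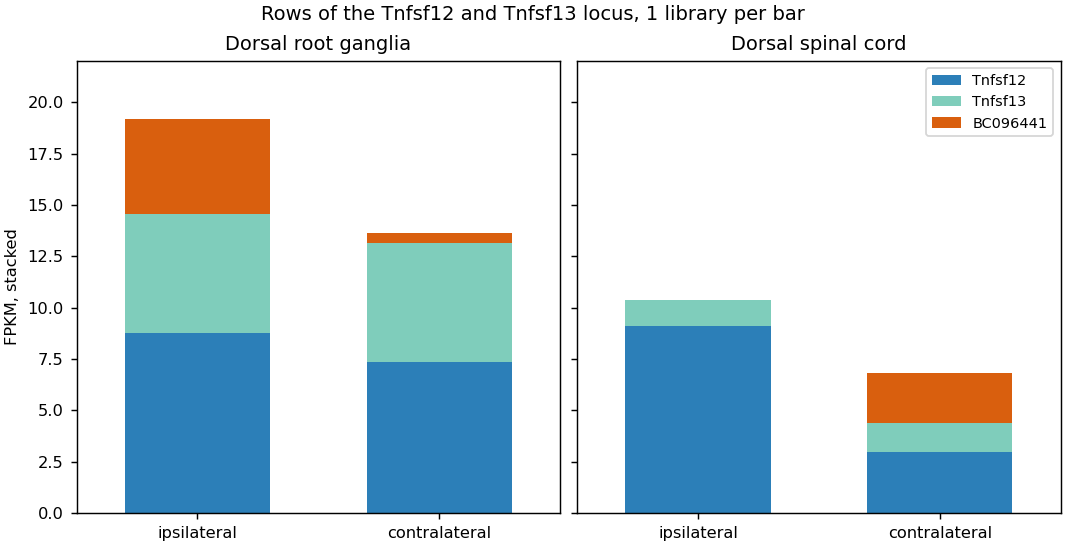
Stacked FPKM (y axis) of the 3 rows of the shared chromosome 11 locus, 1 library per bar, ipsilateral left of contralateral in each tissue. The totals are 19.2 and 13.6 FPKM in DRG and 10.4 and 6.80 in cord, and BC096441 is listed at 0 in ipsilateral cord.

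Tnfsf10 was at 1.93 FPKM in ipsilateral cord, against 0.545 in contralateral cord (3.53-fold, interval 1.67 to 7.48, q = 0.0246 in the authors' deposited table). TRAIL is a death ligand and a known target of interferons. With the pseudocount its log2 ratio was 0.92, short of 2-fold. Among receptors of TRAIL, Tnfrsf10b was at 0.0930 FPKM ipsilaterally and 0.232 contralaterally, and osteoprotegerin (Tnfrsf11b) at 1.38 and 1.35. The decoy receptors Tnfrsf22 and Tnfrsf23 were 0.83-fold (interval 0.35 to 1.97) and 1.51-fold (0.68 to 3.37) in the authors' deposited table. In DRG Tnfsf10 had nearly the same level on both sides, 1.47 and 1.44 FPKM; the difference between tissues was not tested. Its mm9 position is chromosome 3, 27215999 to 27238587.

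Tnfrsf19 was the 1 member called lower. It was at 12.7 FPKM in ipsilateral cord, against 19.6 in contralateral cord, 0.65-fold with an interval of 0.49 to 0.85 and q = 0.0334 in the authors' deposited table, and a log2 ratio of -0.59. TROY is known as a partner of the Nogo receptor, which curbs axon growth, and is found on neural progenitors and glia. The authors' error corresponds to about 78.2 reads ipsilaterally and 163 contralaterally, the most of any called member in cord. The row lies on mm9 chromosome 14 from 61582671 to 61665692, and no other row of the tables overlaps it.

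Tnfrsf14, which encodes HVEM, the receptor of LIGHT, was listed at 0 in ipsilateral cord and at 1.0 FPKM in contralateral cord. The p-value in the authors' deposited table has the size that about 4.74 reads would give, and q = 0.122 there. The log2 ratio of Tnfrsf14 sat at the threshold, at -1.0. In DRG it was at 0.778 FPKM ipsilaterally and 0.996 contralaterally. Its ligand Tnfsf14 was listed at 0 in both cord libraries and was at 0.148 and 0.185 FPKM in DRG. Tnfrsf18, which encodes GITR, a receptor of regulatory T cells, was also lower ipsilaterally, at 0.749 against 2.15 FPKM, where the authors' deposited table puts the fold between 0.11 and 1.11.

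Tnfrsf1a and Tnfrsf21, the measured death domain receptors, had intervals in cord that span 1. Tnfrsf1a was at 4.79 FPKM ipsilaterally, against 2.70 contralaterally (1.77-fold, 0.92 to 3.42 in the authors' deposited table), and Tnfrsf21 at 27.1 against 35.9 (0.75-fold, 0.54 to 1.07, same source). Tnfrsf11a was at 3.45 FPKM against 2.64, Tnfrsf22 at 1.27 against 1.53 and Tnfrsf23 at 1.46 against 0.962. Among ligands, Tnfsf13b was at 4.24 FPKM ipsilaterally and 5.35 contralaterally. Tnf was listed at 0 in both cord libraries. A read of Tnf would be worth 0.0387 FPKM ipsilaterally and 0.0287 contralaterally, so 3 reads, the limit that a count of 0 allows, come to 0.116 and 0.0861 FPKM. Tnfsf4, Tnfsf11, Tnfsf14 and Tnfsf15 were also at 0 in both.

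Receptor genes of B cell factors were at low levels in cord, where B cell markers were under 1 FPKM. Tnfrsf13c, the BAFF receptor gene, was at 2.31 FPKM ipsilaterally and 1.45 contralaterally, Tnfrsf17, which encodes BCMA, at 0.989 and 0.133, and Tnfrsf13b, which encodes TACI, at 0.50 and 0. The interval of the 7.41-fold Tnfrsf17 difference was 1.34 to 41.1, with q = 0.153 in the authors' deposited table. All 7 B and plasma cell markers in the table stayed under 1 FPKM in cord and summed to 1.27 FPKM ipsilaterally and 1.25 contralaterally, with 2 and 4 of them at 0. In DRG Tnfrsf13c was lower than in cord, at 0.458 and 0.403 FPKM. Tnfrsf17 and Tnfrsf13b were at most 0.160 FPKM in DRG, too low to order the tissues.

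The members not yet named stayed under 1 FPKM throughout. Tnfrsf4 and Tnfrsf9, costimulatory receptors of T cells, reached 0.172 and 0.248 FPKM, and the decoy receptor gene Tnfrsf26 reached 0.0788. Their ligand genes Tnfsf4, listed at 0 in all 4 libraries, and Tnfsf9, at most 0.446 FPKM, were as low. The ligand genes Tnfsf15 and Tnfsf18 reached 0.109 and 0.174 FPKM. By position, 9 of the 32 members lie on chromosome 4 and 5 on chromosome 17, and the 2-fold or called members lie on chromosomes 3, 4, 11, 14 and 17.

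Family members with other names gave few differences. Of 14, 5 were measured in DRG and 4 in cord, with median log2 ratios of 0.02 in both tissues and 0 past 2-fold. Over all measured features 3.83% in DRG and 6.1% in cord were 2-fold in either direction, so counts of 0 here say little. The DRG median was -0.32 at a filter of 5 FPKM. Ngfr, the p75 neurotrophin receptor, was the highest at 134 FPKM in ipsilateral and 191 in contralateral DRG (log2 ratio -0.50), and was at 1.09 and 1.33 in cord. Ltbr, the lymphotoxin beta receptor, was at 8.29 and 6.18 FPKM in DRG and at 7.03 and 3.33 in cord, and Relt at 4.09 and 5.34 in DRG and 5.23 and 7.76 in cord. Fas was at 3.28 and 2.68 FPKM in DRG and at 1.53 and 1.19 in cord. Eda2r, a receptor of ectodysplasin and a known p53 target, was under 1 FPKM, at 0.599 against 0.105 in DRG. The authors' deposited table calls it higher in DRG (5.70-fold, interval 2.02 to 16.1, q = 0.0213). It is 1 of 6 genes of this list tested there (16.7%), where 4.64% of all tested features are called higher.

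Signalling genes below the receptors gave 3 differences of 2-fold in cord and 0 in DRG, and that contrast was not tested. Of 22 receptor adaptor and death signalling genes, 19 were measured in each tissue. Over all features in DRG, 3.83% of those measured were 2-fold in either direction and 6.55% of those tested were called. In DRG 0 of the 19 were 2-fold higher or called, with a median log2 ratio of 0.13, which was -0.04 at a filter of 5 FPKM, and a range of -0.42 (Tab3, at 8.65 against 11.9 FPKM) to 0.53 (Traf5, at 1.10 against 0.449). In cord 3 of 19 were 2-fold higher and called in the authors' deposited table (15.8%, where 4.46% of all measured features were 2-fold higher and 4.52% of all tested features were called higher), 0 were 2-fold lower, and the median was 0.02; at a pseudocount of 3 FPKM 0 were 2-fold higher. Map3k14, which encodes NIK, the kinase of the noncanonical NF-kappaB pathway, was at 2.56 FPKM ipsilaterally, against 0.296 contralaterally (8.64-fold, interval 3.58 to 20.9, q = 0.000236 in the authors' deposited table). Casp8, the initiator caspase of death receptors, was at 3.61 against 0.992 FPKM (3.64-fold, interval 1.69 to 7.85, q = 0.0247, same table). Ripk1, the kinase recruited to TNFR1, was at 5.86 against 1.98 FPKM (2.97-fold, interval 1.74 to 5.05, q = 0.00362 in the authors' deposited table). In DRG these genes stood at 0.676 and 0.846 FPKM for Map3k14, 2.83 and 1.76 for Casp8 and 3.51 and 3.20 for Ripk1. Map3k14 and Casp8 counted as measured in cord through their ipsilateral library alone, so the count of 3 describes the libraries and supports nothing further. The myeloid markers were higher in the same cord library, and their part in these 3 differences was not tested.

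**Figure D4:**
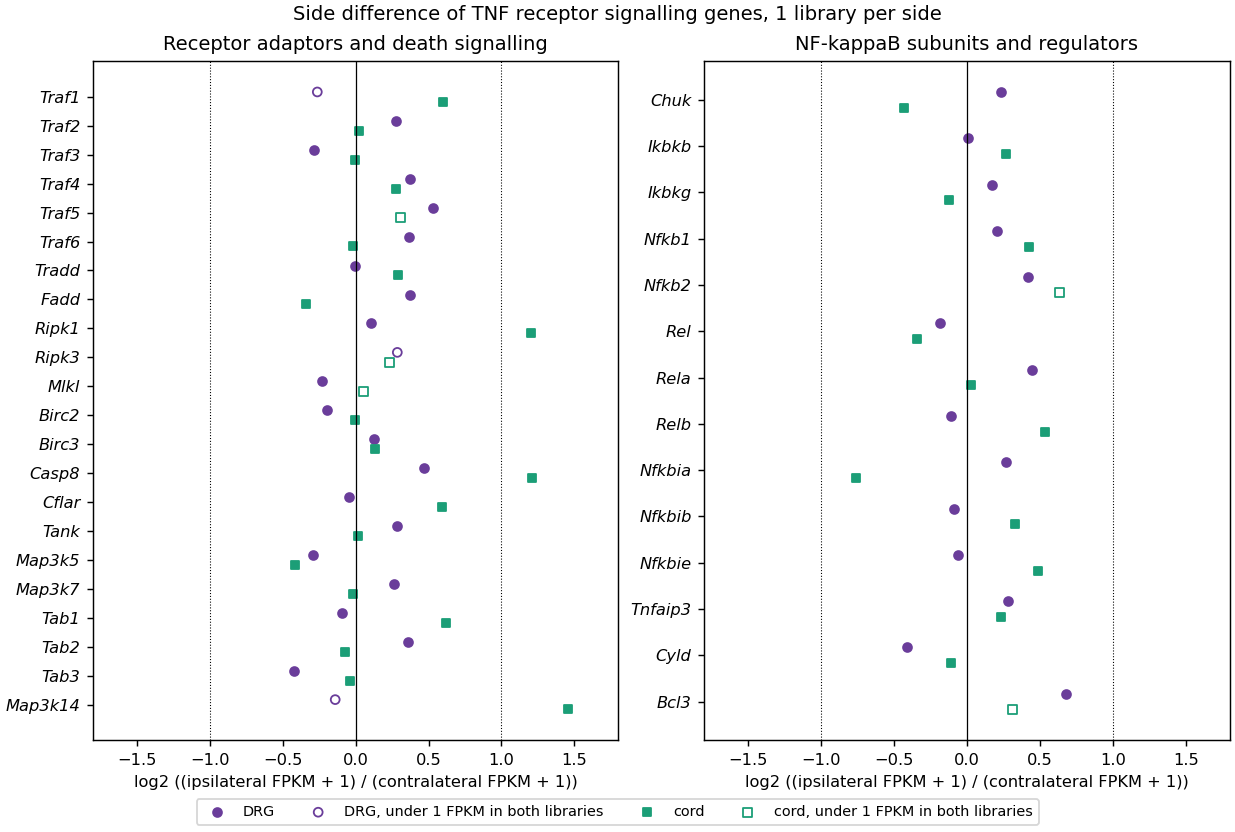
Log2 ratio of (ipsilateral FPKM + 1) over (contralateral FPKM + 1) (x axis) for receptor adaptors and death signalling genes (left) and NF-kappaB genes (right), with circles for DRG and squares for cord. Open symbols are genes under 1 FPKM in both libraries, dotted lines mark 2-fold, and the symbols past them are Map3k14, Casp8 and Ripk1 in cord.

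The measured NF-kappaB subunits and regulators stayed short of 2-fold on the log2 ratio scale. All 14 were measured in DRG and 12 in cord, and 0 were past 2-fold or called in either tissue. Over all measured features 3.83% in DRG and 6.1% in cord were 2-fold in either direction. The authors' deposited table calls 6.55% and 6.06% of all tested features, so counts of 0 in lists this short say little. The medians were 0.19 and 0.13, and the cord median was -0.04 at a filter of 5 FPKM. The others of the list, under 1 FPKM in cord, were both higher ipsilaterally. Nfkb2 was at 0.947 against 0.257 FPKM (3.69-fold, interval 1.25 to 10.9, q = 0.139 in the authors' deposited table). Bcl3 was at 0.302 against 0.0497 FPKM (6.06-fold, interval 1.05 to 34.9 in the authors' deposited table, which gives no test). Bcl3, a nuclear co-regulator, was at 2.78 FPKM ipsilaterally and 1.36 contralaterally in DRG (2.05-fold, log2 ratio 0.68), Rela at 14.9 and 10.7 (0.44), Nfkb2 at 2.16 and 1.36 (0.42), and Cyld, a deubiquitinase that restrains the pathway, at 9.17 and 12.5 (-0.41). In cord Nfkbia, the inhibitor induced by NF-kappaB itself, was at 11.1 FPKM ipsilaterally and 19.4 contralaterally (-0.76), while Relb, partner of NIK signalling, was at 2.71 and 1.56 (0.53), Nfkbie at 2.71 and 1.65 (0.49) and the kinase gene Chuk at 6.72 and 9.40 (-0.43).

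Known NF-kappaB target genes gave 1 difference of 2-fold in each tissue. In DRG 1 of 15 measured targets was 2-fold higher (6.67%, where 3.04% of all measured features were) and 0 were lower, with a median of 0.23, which was -0.10 at a filter of 5 FPKM. The 1 was Csf1, the macrophage growth factor gene, at 63.1 against 11.0 FPKM (2.42), and Ccl2, a monocyte chemokine gene, was at 3.16 against 1.39 (0.80). In cord 1 of 12 was 2-fold higher (8.33%, where 4.46% of all measured features were) and 0 were lower, with a median of 0.36, which was -0.41 at a filter of 5 FPKM. There Cxcl10, a chemokine gene also induced by interferon, was at 2.23 against 0.0472 FPKM (1.62), the adhesion molecule gene Icam1 at 2.08 against 0.556 (0.99), and Irf1 at 2.84 against 1.22 (0.79). Cxcl10 counted as measured in cord through its ipsilateral library alone, so the cord count describes the libraries and supports nothing further. Nfkbia, Nfkbie, Nfkb2, Relb, Bcl3 and Tnfaip3 stand in both NF-kappaB lists, and Birc3 and Traf1 are also adaptors, so the lists overlap.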

How the data were processed

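RNA was sequenced from 4 libraries of mouse DRG and lumbar dorsal cord, 1 per tissue and side. Per the labels' protocols, the QIAGEN RNeasy Mini Kit gave the RNA, and Epicentre's ScriptSeq mRNA-Seq kit the libraries. TopHat 1.4.0, Cuffdiff 1.3.0 and the mm9 build are named in the submitters' processing notes; annotation, filters and strand setting are not given in the sources used here. Per the file headers, the deposited tables hold FPKM, p-values and q-values of 1 library against 1 library, and a log2 fold change and statistic, used here as scores from which the authors' standard error was taken. The DRG table gives ipsilateral over contralateral and the cord table the reverse; all ratios here are ipsilateral over contralateral.

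Ratios used a pseudocount of 1 FPKM and a filter of 1 FPKM in either library, with Python 3.11.15, pandas 2.3.3, NumPy 2.4.6 and SciPy 1.17.1; scripts were checked on simulated data. Plain folds have no pseudocount. Depth is not given, but features with 1 read in each library show what a read is worth. In DRG 50 of 52 such features put it at 0.639 times as much FPKM ipsilaterally as contralaterally, and in cord 20 of 20 at 1.35 times. Effective reads are those whose counting error would equal the authors' standard error. Intervals and limits cover counting and the authors' modelled error only. Coordinates are 1-based mm9, from the tables.

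The members, gene lists and tests were chosen with earlier results of these data known. Named are all members at 1 FPKM or more in any library, members past 2-fold or called and their partners, and Tnf. Up to 4 genes of each list and tissue with the largest ratio are also named. The remaining members, Eda2r and Rhbdf2 were named after their values were seen. Alternatives were no filter, a filter of 5 FPKM, pseudocounts of 0.1 and 3 FPKM, rescaling by the median or upper quartile, the authors' calls (q up to 0.05) and the authors' test status; summing the rows of the Tnfsf12 locus was added after seeing the data. Columns of per-sample values left out number 0.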

Additional observations from a re-analysis of the deposited data

Results flagged for a closer look

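BC096441, a row of the Tnfsf12 locus outside the family's naming rule, went opposite ways in the tissues. Its log2 ratio was 1.91 in DRG and -1.77 in cord, and the difference between tissues was not tested. In ipsilateral DRG it was at 4.61 FPKM, above the contralateral level of 0.493, while in cord it was listed at 0 ipsilaterally and at 2.42 contralaterally. The authors' error corresponds to about 64.5 and 4.42 reads in DRG, and their p-value to about 14.2 reads contralaterally in cord.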

How the results depend on the processing

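The 3 receptors higher in DRG were Tnfrsf12a, Tnfrsf1b and Tnfrsf8, and the count was 3 again at a pseudocount of 0.1 FPKM, without a filter, under both rescalings, by the authors' call and by their test status. It was 1 at a pseudocount of 3 FPKM, where Tnfrsf12a had a log2 ratio of 1.67, Tnfrsf1b 0.69 and Tnfrsf8 0.43, and 1 at a filter of 5 FPKM, which drops the other two. The count lower in DRG was 0 under every alternative. In cord a pseudocount of 0.1 FPKM gave 3 members higher (Tnfsf12, Tnfsf10 and Tnfrsf1b) and 2 lower (Tnfrsf14 and Tnfrsf18), and the authors' call gave 2 higher. The count lower in cord was 0 at a pseudocount of 3 FPKM, at a filter of 5 FPKM and under upper-quartile rescaling, because Tnfrsf14 no longer passed. Summing the rows of its locus took the log2 ratio of Tnfsf12 in cord to 0.66 with BC096441 and to 0.54 with all 3 rows, short of 2-fold. In DRG the same sums took the ratio from 0.22 to 0.70 and 0.46. The members' median turned to -0.28 in cord at a filter of 5 FPKM and was 0 without a filter; in DRG it stayed between 0.07 and 0.25. Over all features, 400 were 2-fold higher and 103 lower in DRG, against 679 and 259 with a pseudocount of 0.1 FPKM, or 204 and 44 with one of 3; in cord 595 and 219, against 964 and 481, and 264 and 81, and at a filter of 5 FPKM 373 and 130 in cord, and 273 and 68 in DRG. Among single genes and context lists, 367 alternative values lay within the interval of the value reported or within 1.5 times its count, and 16 moved. No 2-fold gene changed sign, but 10 context list medians did, 8 of them at a filter of 5 FPKM or without one, as did 3 gene ratios under 0.02 by median rescaling: Tnfsf10 and Tnfsf13 in DRG and Tnfrsf11b in cord. No paired analysis was possible because each group has 1 library. Low levels limit most members: those under 1 FPKM rest on few reads.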

Other observations

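All 5 listed genes that shed or restrain TNF family ligands had log2 ratios above 0 in DRG, where 7367 of 13137 measured features did. The authors' deposited table calls 1 of the 5 higher (20%), where it calls 4.64% of all tested features higher. Timp3, an inhibitor of the sheddase ADAM17, was at 173 FPKM ipsilaterally, against 97.8 contralaterally (log2 ratio 0.81), and is called in the authors' deposited table (q = 0.0388). Adam10 was at 75.2 against 48.0 FPKM (0.64) and Adam17, which releases soluble TNF, at 8.46 against 5.22 (0.61), neither of them called there. Rhbdf1 was 1.12-fold (interval 0.74 to 1.70) and Rhbdf2 1.20-fold (0.66 to 2.19) in the authors' deposited table, both intervals spanning 1. In cord Timp3 was at 45.0 against 59.3 FPKM (-0.39), Adam17 at 9.06 against 6.36 (0.45), Adam10 at 31.2 against 30.5 (0.03) and Rhbdf1, a cofactor of ADAM17, at 2.56 against 3.55 (-0.35).

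Genes of the Nogo receptor complex, to which TROY and p75 belong, had a median log2 ratio of -0.36 over 8 measured genes in DRG and 0.10 over 7 in cord. The 9 sensory neuron markers had a median of -0.47 in DRG. Of 5 astrocyte markers in DRG the authors' deposited table calls 2 lower (40%) and 1 higher (20%). Of 4 oligodendrocyte markers tested there it calls 1 lower (25%) and 0 higher, and 4 of the 6 listed were under 1 FPKM. The part of these markers in the lower genes was not tested. Of the 8 Nogo receptor complex genes the authors' deposited table calls 1 higher and 1 lower in DRG (12.5% each). Over all tested features in DRG it calls 4.64% higher and 1.9% lower. In DRG the ligand gene Rtn4, which encodes Nogo, was at 405 FPKM ipsilaterally, against 229 contralaterally (0.82, q = 0.0130 in the authors' deposited table). The ligand gene Omg was at 4.22 against 9.39 FPKM (-0.99, q = 0.0159 in the authors' deposited table), and Rtn4rl1, a Nogo receptor homologue, at 13.1 against 21.0 (-0.64). In cord, where Tnfrsf19 was lower ipsilaterally, Rtn4r was at 1.24 against 0.632 FPKM (0.46) and Mag at 167 against 129 (0.37). Omg was at 53.7 against 66.7 FPKM there (-0.31). In the authors' deposited table the cord intervals of Rtn4r (0.68 to 5.70), Mag (0.92 to 1.83) and Omg (0.57 to 1.13) all span 1.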
